A study of Glycine max with 6 samples.

Results

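A stretch of soybean chromosome 13 from 3083566 to 4226773 (1143207 bases, coordinates as deposited) held 131 annotated gene models, and 47 of them were taken as its expressed members. A model was a member if its locus lay inside the stretch, its estimate had an OK status in all 3 deposited columns, and it reached at least 1 FPKM in one column. FPKM counts the fragments of a transcript relative to its length in kilobases and to the total sequenced. Of the 56044 models listed genome-wide, 33291 passed the same filter. The stretch was chosen by measured values: its ends are the first and the last of a run of models that read higher with GmPHD6 overexpression than in control. Values of that comparison are therefore given as descriptions. Passing the 1 FPKM limit in the overexpression column alone, as 4 members did (Glyma.13G012400, Glyma.13G016400, Glyma.13G020100 and Glyma.13G023700), likewise fixes the direction of that difference.

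RNA-seq was done on hairy roots of soybean (Glycine max, strain KF1), the transformed roots that emerge where a stem has been infected with Agrobacterium rhizogenes. Groups of 2 libraries each were made from roots with a construct that overexpresses GmPHD6 (GmPHD6-OE), from roots with an RNA interference construct against it (RNAi), and from control roots made with K599, which the labels call wild type. K599 is the bacterial strain used for infection in all 3 groups. Seedlings were kept at 28 °C under light for 16 h and in darkness for 8 h a day. The recorded seedling age was the same in all 3 groups, as were a humidity period of 2 weeks and an injection height of 2 cm. The recorded range of root lengths, from 2 cm upwards, was also the same. The labels name no promoter for either construct and do not tell whether libraries of the same group are from different plants. Each hairy root is a transformation event of its own, and bulk RNA was measured, so fewer cells of a type and less RNA per cell cannot be told apart. GmPHD6 belongs to the Alfin-like proteins, which carry a PHD finger, a domain that in many proteins binds histone tails.

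In plants the large ribosomal RNAs are transcribed by RNA polymerase I from long tandem arrays of near-identical units, which form the nucleolus organizer of a chromosome. The precursor is cut into the mature rRNAs inside the nucleolus, and the mature rRNAs make up most of the RNA of a cell. They are mostly not polyadenylated, and RNA-seq libraries are usually prepared so that little of them is sequenced. Gene models predicted inside or beside such an array need not be protein-coding genes.

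Soybean has its nucleolus organizer on the short arm of chromosome 13, and the stretch has been called an rDNA stretch for that reason. In the RefSeq annotation of another assembly, Glycine_max_v4.0, chromosome 13 carried 406 of the 459 genes of the class rRNA, and 404 of these 406 had another rRNA gene as direct neighbour. Chromosome 19 carried 38 and all other sequences 15. None of the deposited IDs matched that table (0 matches), and the deposited file pairs no ID with a name, so whether any member reads an rRNA was not tested and no role is given to a member. The members are named by their IDs and ordered by place and level. Cell type markers of roots and the level of GmPHD6 itself were not analysed here for the same reason.

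The 2 libraries of each group had been combined by the authors into 1 FPKM value with a lower and an upper bound, which leaves no SD, n or test over libraries for the members. The bounds were taken as 2 standard deviations of counting error. On that assumption they correspond to 14651645 computed fragments for GmPHD6-OE, 15340500 for RNAi and 15226733 for control. By the recovery of libraries described below, a computed number is a scaled mean of the 2 libraries of a group. It is therefore smaller than the sum of their whole fragments. What else the bounds include is not stated. For models with few fragments the separate libraries could be recovered, and there the summed counts of the 2 overexpression libraries differed. In 27 low models of the stretch, none of them a member, the libraries of GmPHD6-OE held 28 and 99 fragments, those of RNAi 25 and 20, and those of control 9 and 15. Because the columns are pooled, the members' values cannot be given without either library.

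The layout of the stretch was repetitive. Of its 131 models, 43 spanned 5295 to 5310 bases, 27 of them exactly 5305, and they lay at 42 loci. Of the 41 distances between the starts of neighbouring loci of this kind, 21 were 7620 to 7631 bases, most often 7626 (12 times). The models of this span were nearly silent in the deposited columns. In all 3 columns 31 of the 43 were listed at 0, another 11 stayed under the 1 FPKM limit with a highest value of 0.315 FPKM, and 1, Glyma.13G014100, was a member. Elsewhere in the genome 72 of 98 models of such a span passed the filter (73.5%). Fragments that match many near-identical places are handled by rules that the sources used here do not give, so a value of 0 there does not show that no RNA was made.

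The 84 models of the stretch that were no members comprised 51 listed at 0 in all 3 columns, 1 of them with an estimate marked as low data, and 33 with a value above 0. Nearest under the limit were Glyma.13G023200, with 0.924 FPKM in GmPHD6-OE, 0.331 in RNAi and 0.271 in control, and Glyma.13G023900, with 0.862, 0.910 and 0.826 in the same columns. Just over it stood Glyma.13G023700, with 1.23 FPKM in GmPHD6-OE, 0.265 in RNAi and 0.0937 in control. The limit thus separated neighbouring values of a continuous range, while most members lay far above it.

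**Figure D1:**
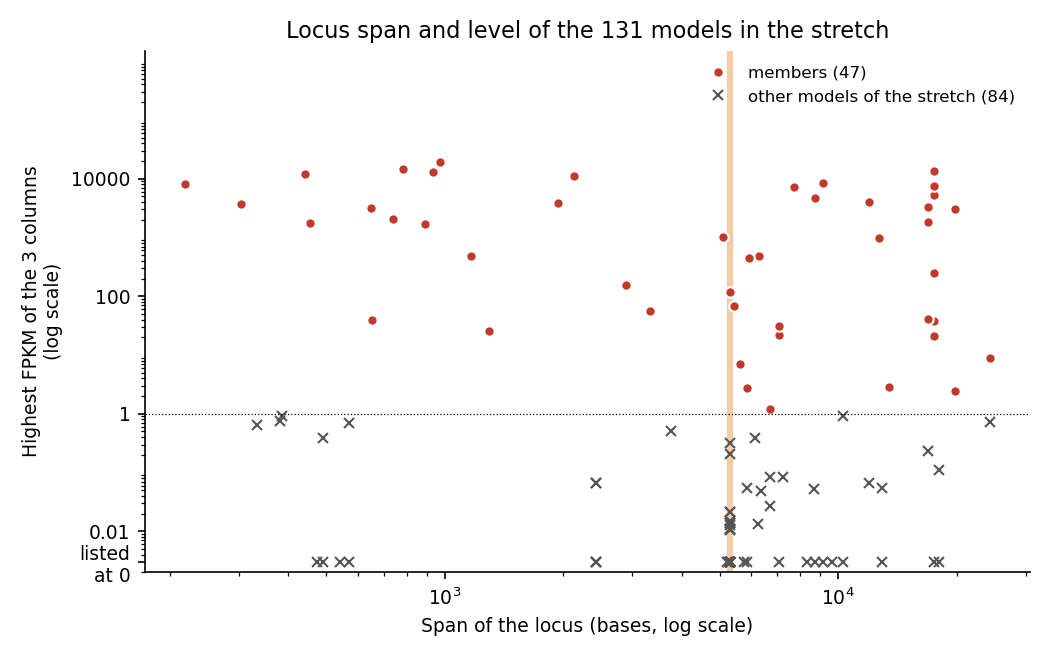
Each point is a model of the stretch, with the span of its locus in bases across and its highest FPKM of the 3 columns up, both on log scales, and models listed at 0 drawn at the foot. The shaded band marks spans of 5295 to 5310 bases, where 31 of 43 models were listed at 0; the members (47, filled circles) covered spans from 219 to 24263 bases.

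The members were among the most abundant transcripts of the overexpression column. Their summed level was 161258 FPKM in GmPHD6-OE, 22041 in RNAi and 15417 in control, which was 19.4%, 2.93% and 2.28% of the column. Their median level was 1706 FPKM in GmPHD6-OE, 168 in RNAi and 99.4 in control. At least 1000 FPKM was reached by 25 members in GmPHD6-OE, 10 in RNAi and 5 in control, beside 37, 34 and 26 models outside the stretch. Among the 20 highest models of a column, 14 were members in GmPHD6-OE, 3 in RNAi and 1 in control. The highest member ranked 1 in GmPHD6-OE, 10 in RNAi and 18 in control. The members were thus abundant in control roots too, at a lower level.

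A few models carried most of the signal. The 10 highest members held 71.3% of the members' FPKM in GmPHD6-OE, 67.2% in RNAi and 66.5% in control. The highest of all, Glyma.13G013600 (3229174 to 3230144), read 19499 FPKM in GmPHD6-OE, 1349 in RNAi and 1125 in control. Next came Glyma.13G021100 (3882966 to 3883750) with 14752, 2399 and 1506 FPKM in the same columns. In both the GmPHD6-OE value lay far above the other columns, and the RNAi value lay above control by 1.20 and 1.59 times. Glyma.13G011900 (3086309 to 3103856) had 13551 FPKM in GmPHD6-OE, 1246 in RNAi and 820 in control. Glyma.13G023300 (4058725 to 4059660) had 12897 FPKM in GmPHD6-OE, 1848 in RNAi and 1261 in control. The last member of the stretch, Glyma.13G024200 (4226333 to 4226773), had 11823 FPKM in GmPHD6-OE, 1377 in RNAi and 868 in control. Every one of these 5 kept the order GmPHD6-OE, RNAi, control.

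The other models of the highest 10 followed the same order of columns. Glyma.13G016700 (3476739 to 3478864) read 10951 FPKM in GmPHD6-OE, 1201 in RNAi and 820 in control, and Glyma.13G021200 (3885305 to 3894484) read 8386, 1038 and 729. Glyma.13G012300 (3110021 to 3110240), the shortest member, read 8235 FPKM in GmPHD6-OE (bounds 7891 to 8579), 640 in RNAi (562 to 718) and 354 in control (304 to 405). Its bounds were wide for such a level, because few fragments stood behind it. Glyma.13G011600 read 7591 FPKM in GmPHD6-OE, 1882 in RNAi and 1089 in control, and Glyma.13G024100 (4218289 to 4226021) read 7332, 1075 and 739. Glyma.13G024100 had the most computed fragments of all members, 265832 in GmPHD6-OE, 45572 in RNAi and 36436 in control.

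At least 100 FPKM was reached by 32 members in GmPHD6-OE, 27 in RNAi and 23 in control, and the others were lower. The first member of the stretch, Glyma.13G011200, had 39.1 FPKM in GmPHD6-OE, 9.65 in RNAi and 7.05 in control. The longest, Glyma.13G018000 (24263 bases), had 8.89 FPKM in GmPHD6-OE, 1.94 in RNAi and 1.87 in control. Levels among members therefore ranged from 1.23 to 19499 FPKM in GmPHD6-OE, from 0.250 to 2399 in RNAi and from 0.0927 to 1506 in control.

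Members were unevenly placed along the stretch. The first 100 kb held 12 members with 41747 FPKM in GmPHD6-OE, and the next 100 kb held 8 with 29085 FPKM. Between 400 and 700 kb there was 1 member per 100 kb, with 8.89, 490 and 1021 FPKM in GmPHD6-OE. The level was high again from 700 to 800 kb, with 5 members and 22995 FPKM, and the last 2 members alone had 19154 FPKM. Where in the stretch a member lay was only weakly related to how far it was raised: over the 47 members, start position and the log2 ratio of GmPHD6-OE to control had a Pearson correlation of 0.15 and a Spearman correlation of 0.09. Members share libraries and depth, and some share a locus, so this is a description.

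**Figure D2:**
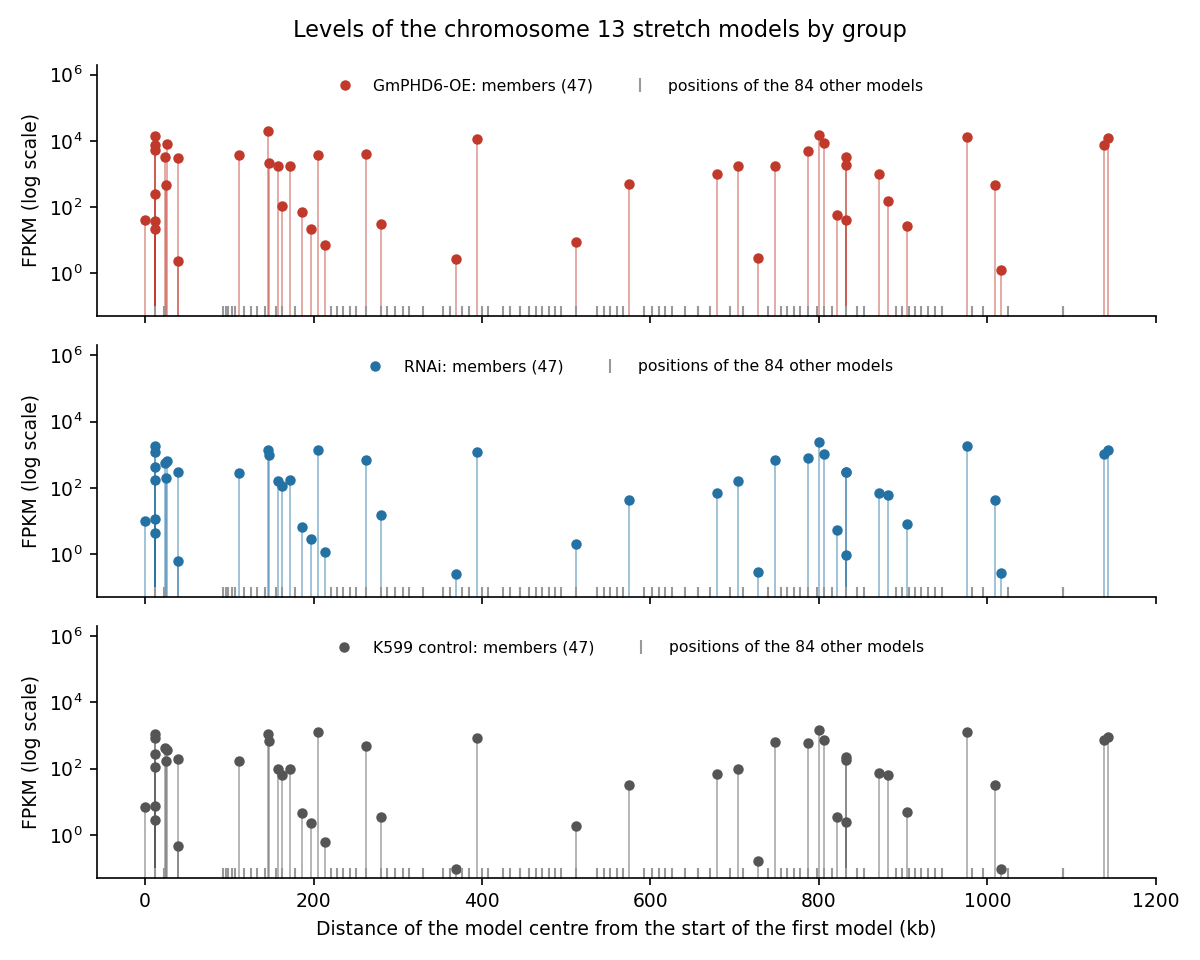
Level of each member in FPKM (log scale) against the distance of its model centre from the start of the first model in kb, with a panel each for GmPHD6-OE, RNAi and K599 control, and ticks at the foot for the 84 other models. The tall points recur at the same places in all 3 panels, with the highest at 19499 FPKM in GmPHD6-OE, 2399 in RNAi and 1506 in control.

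The first comparison, overexpression against control, asks which transcripts differ when GmPHD6 is overproduced. Every member read higher in GmPHD6-OE than in control, with deposited bounds that did not overlap. The ratio of FPKM values ran from 1.69 to 29.2 with a median of 11.5. Below 2-fold there was 1 member, 6 lay between 2 and 4, 9 between 4 and 8, 19 between 8 and 16, and 12 at 16 or above. The summed level outside the members was 671801 FPKM in GmPHD6-OE and 661228 in control, a ratio of 1.02, against 10.5 for the members' sum.

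Differences were also taken between columns after conversion to log2(FPKM + 1), a scale on which low genes show smaller changes. By a rule of size, a model counted as higher or lower if this difference was at least 1 in size (2-fold) and the bounds did not overlap. In GmPHD6-OE against control 46 of the 47 members were higher and 0 lower. Over the 32952 genes compared, 0.847% were higher and 1.37% lower by the rule. Bounds lay apart upwards in 47 of 47 members and in 12.0% of all genes, and downwards in 0 members and in 10.0% of all genes. Because this contrast drew the ends of the stretch, nothing is read from these shares. The members' median difference was 3.03, with quartiles of 2.00 and 3.80, and the median over all genes compared was 0.02.

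The 3 largest differences belonged to Glyma.13G012300 with 4.53, Glyma.13G013100 with 4.45 and Glyma.13G011400 with 4.29. Glyma.13G013100 read 3833 FPKM in GmPHD6-OE, 280 in RNAi and 174 in control, and Glyma.13G011400 read 5342, 430 and 272. The 3 smallest belonged to Glyma.13G014100 with 0.75, Glyma.13G023700 with 1.03 and Glyma.13G011800 with 1.14. Glyma.13G023700 is small on this scale because its levels are low, since its FPKM ratio was 13.1.

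Glyma.13G014100 (3243012 to 3248315) was the single member that did not pass the rule. It read 111 FPKM in GmPHD6-OE (bounds 97.5 to 124), 117 in RNAi (104 to 130) and 65.5 in control (56.5 to 74.4). Both construct columns thus lay above control by a like amount, 1.69 and 1.78 times, and their own bounds overlapped. It was also the single member with a span of 5295 to 5310 bases, and its locus was shared with another listed model.

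**Figure D3:**
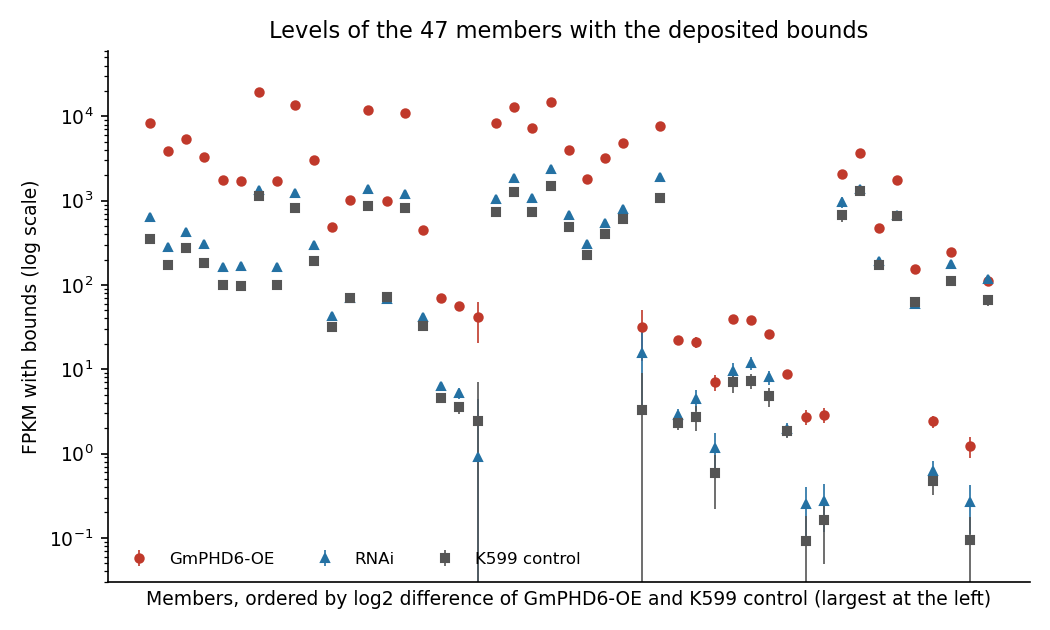
FPKM (log scale) of each of the 47 members in GmPHD6-OE (circles), RNAi (triangles) and K599 control (squares), with the deposited bounds as bars, ordered by the difference of log2(FPKM + 1) between GmPHD6-OE and control from 4.53 at the left to 0.75 at the right. The circles lie above the other symbols except in the last member, where GmPHD6-OE had 111 FPKM and RNAi 117.

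The comparison of RNAi against control was not used to draw the stretch, although it shares the control column with the comparison that was. Roots with the RNAi construct read slightly above control in most members. The RNAi value was above control in 44 members and below in 3. No share of all genes by direction alone was set beside this count. The FPKM ratio had a median of 1.47 in members and 1.04 over all genes compared. In 41 members the ratio lay between 1 and 2. By the rule of size 0 members were higher and 0 lower, beside 5.56% and 5.60% of the 32997 genes compared. At any size, bounds lay apart upwards in 31 of 47 members and in 24.3% of all genes, and downwards in 0 members and in 18.6% of all genes. The members' median difference on the log2(FPKM + 1) scale was 0.46, with quartiles of 0.22 and 0.65, against 0.05 over all genes compared. At a mean of at least 100 FPKM the medians were closer, 0.55 over 30 members and 0.26 over 1033 genes outside the stretch. Some of these members reach that level through the GmPHD6-OE column alone. Members also had tighter bounds, which give the log2 ratio a median SD of 0.06 against 0.16 over all genes. The shares with bounds apart are thus not matched for level. Outside the members the summed FPKM was itself higher, 731178 in RNAi and 661228 in control, a ratio of 1.11. The members' sum had a ratio of 1.43, and their share of the computed fragments a ratio of 1.19.

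The 2 largest RNAi differences were 1.93 at Glyma.13G015600 and 0.85 at Glyma.13G012300. Glyma.13G015600 read 31.7 FPKM in GmPHD6-OE (12.5 to 50.8), 15.5 in RNAi (2.90 to 28.0) and 3.33 in control (0 to 9.07). Its bounds in RNAi and control overlapped, and these values had only about 6 computed fragments in RNAi and 1 in control. The 3 members that read lower in RNAi were Glyma.13G021900, Glyma.13G022300 and Glyma.13G022200. Glyma.13G021900 had 41.7 FPKM in GmPHD6-OE (20.6 to 62.9), 0.908 in RNAi (0 to 4.50) and 2.43 in control (0 to 7.13). Glyma.13G022300 had 155 FPKM in GmPHD6-OE, 59.4 in RNAi and 62.95 in control. In each of the 3 the bounds of RNAi and control overlapped.

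Set directly against RNAi, overexpression read higher in 46 members and lower in Glyma.13G014100 alone. The ratio of FPKM values ran from 0.948 to 46.0 with a median of 6.98, against a median of 0.985 over all genes compared. By the rule of size 43 members were higher and 0 lower, beside 5.43% and 6.46% of the 32932 genes compared. At any size, bounds lay apart upwards in 45 of 47 members and in 19.5% of all genes, and downwards in 0 members and in 22.0% of all genes. The median difference on the log2(FPKM + 1) scale was 2.59, against -0.02 over all genes compared. This comparison shares the overexpression column with the one that drew the stretch, so it is no independent check of it. The 4 members that did not pass were Glyma.13G011800, Glyma.13G014100, Glyma.13G015600 and Glyma.13G023700. The highest ratio, 46.0 at Glyma.13G021900, had less than 1 computed fragment on the RNAi side and is poorly determined.

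For the submitters, a gene downstream of GmPHD6 is one that goes up in GmPHD6-OE and down in RNAi. By the rule of size 46 members met the condition for GmPHD6-OE and 0 the one for RNAi, beside 0.847% of all genes compared that were higher in GmPHD6-OE and 5.60% that were lower in RNAi. The count of 46 comes from the contrast that drew the stretch, so nothing is read from it.

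Shared loci make the split of fragments between models uncertain. Of the 47 members, 17 shared their locus with another listed model (36.2%, against 7.01% of the tested genes outside the stretch), and 11 shared it with another member. The 47 members stood at 39 separate loci. The locus from 3086309 to 3103856 listed 7 models, of which 6 were members: Glyma.13G011400, Glyma.13G011500, Glyma.13G011600, Glyma.13G011700, Glyma.13G011800 and Glyma.13G011900. Their summed level was 26791 FPKM in GmPHD6-OE, 3750 in RNAi and 2304 in control. Within this locus Glyma.13G011900 was the highest in GmPHD6-OE and Glyma.13G011600 in RNAi and control. Glyma.13G011700 was the lowest in all 3 columns, with 20.9 FPKM in GmPHD6-OE, 4.41 in RNAi and 2.74 in control. Glyma.13G011500 read 38.6 FPKM in GmPHD6-OE, 11.8 in RNAi and 7.29 in control. Glyma.13G011800 read 248 FPKM in GmPHD6-OE, 175 in RNAi and 112 in control.

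Models of this locus did not move by a fixed factor with overexpression. Their ratios of GmPHD6-OE to control ran from 2.22 in Glyma.13G011800 to 19.6 in Glyma.13G011400. Their ratios of RNAi to control lay close together, from 1.52 to 1.73. At the locus from 3907102 to 3924017, 3 of 4 models were members and summed to 5165 FPKM in GmPHD6-OE, 612 in RNAi and 408 in control. Glyma.13G021600 read 3301 FPKM in GmPHD6-OE, 309 in RNAi and 181 in control and Glyma.13G021800 read 1823, 302 and 224, while Glyma.13G021900 was far lower. Ratios of GmPHD6-OE to control in these 3 ran from 8.12 to 18.2, and ratios of RNAi to control from 0.373 to 1.71, the lowest being that of the poorly covered Glyma.13G021900.

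Over all members, levels were ranked closely alike in the 3 columns, with exchanges of place such as that of Glyma.13G013600 and Glyma.13G021100, while the ratios between columns varied. The log2 FPKM values of the 47 members had a Pearson correlation of 0.992 and a Spearman correlation of 0.995 between RNAi and control, and of 0.968 and 0.954 between GmPHD6-OE and control. Outside the stretch the same correlations were 0.880 and 0.895 for RNAi with control over 32886 genes, and 0.958 and 0.965 for GmPHD6-OE with control over 32855 genes. A wide range of levels raises such coefficients, and models within a column share its libraries. The spread of the log2 FPKM ratio is easier to read. Among the 30 members with a mean of at least 100 FPKM, its SD over members was 0.98 for GmPHD6-OE against control, where the bounds alone gave a median of 0.03. For RNAi against control the SD over the same number of members was 0.25, where the bounds alone gave 0.04.

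Genes outside the stretch at this level had an SD of 0.54 for GmPHD6-OE against control (1032 genes) and of 1.02 for RNAi against control (1033 genes). These values are printed as descriptions only: the overexpression ratio chose the stretch, and some members reach this level through the GmPHD6-OE column alone. Among members, in both comparisons, the scatter was larger than the bounds alone give. No difference in spread between members and other genes was tested.

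**Figure D4:**
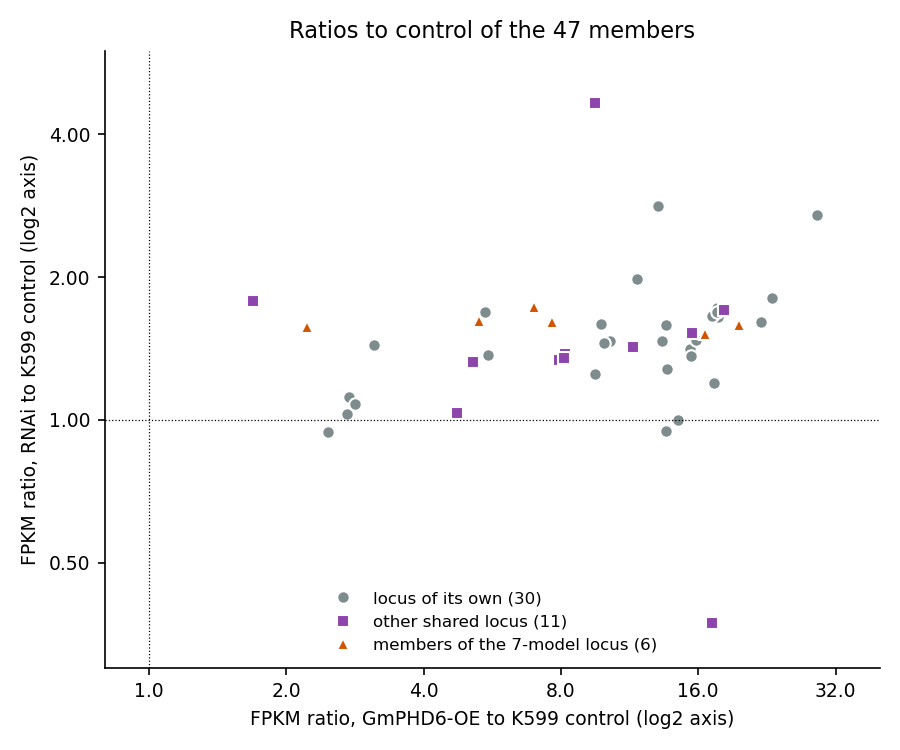
FPKM ratio of GmPHD6-OE to control (across) and of RNAi to control (up) for the 47 members on log2 axes; the axes share the control column, and symbols mark members at the 7-model locus (triangles), at another shared locus (squares) and at a locus of their own (circles). The points spread from 1.69 to 29.2 across, while 41 of 47 lie between 1 and 2 up.

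Some members at separate loci read almost the same values. Whether their sequences are alike was not tested, since no sequence was at hand. Of 1062 pairs of members at separate loci, 5 pairs stayed within 1.1 times of each other in all 3 columns, and they involved 7 members. This limit and these members were chosen after their values were seen. Glyma.13G013900, Glyma.13G014200 and Glyma.13G019900 each spanned 892 bases. Glyma.13G013900 read 1750 FPKM in GmPHD6-OE, 163 in RNAi and 98.8 in control, Glyma.13G014200 read 1722, 168 and 97.95, and Glyma.13G019900 read 1706, 164 and 99.4. The bounds of these 3 overlapped in every column, although the third locus lay far along the stretch from the other ones.

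Glyma.13G019700 and Glyma.13G022200 formed another pair with values as close. Glyma.13G019700 read 1021 FPKM in GmPHD6-OE, 70.9 in RNAi and 70.8 in control, and Glyma.13G022200 read 989 in GmPHD6-OE, 68.9 in RNAi and 72.8 in control. Their loci spanned 5096 and 12714 bases, but the transcript lengths implied by their bounds were alike, about 2914 and 2959 bases. In both, the bounds of RNAi and control overlapped, unlike in the 892-base models. Glyma.13G018700 read 490 FPKM in GmPHD6-OE, 43.2 in RNAi and 31.7 in control, and Glyma.13G023600 read 452, 42.1 and 33.0. The GmPHD6-OE to control ratios of these last 2 pairs overlapped. Likeness within a pair follows from how the pairs were chosen.

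The length of a model bears on its FPKM, because a short transcript turns few fragments into a high value. Spans of the members ran from 219 to 24263 bases with a median of 5876, against a median of 3835 for tested genes outside the stretch. The transcript length that the values and bounds imply was shorter, with a median of about 773 bases for members and about 1540 outside. This implied length is approximate, since it deviated between columns by a median of 17.6%. An implied length under 100 bases was found for 5 members (10.6%) and for 1.78% of genes outside. These 5 held 11.1% of the members' FPKM but 0.528% of their computed fragments in GmPHD6-OE, 15.9% and 0.911% in RNAi, and 13.7% and 0.840% in control.

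Counted in fragments the members' share was accordingly smaller. They held 1508489 computed fragments in GmPHD6-OE, 220427 in RNAi and 183419 in control, that is 10.3%, 1.44% and 1.20% of all. For the 41 members with at least 20 computed fragments in both columns, the median ratio of GmPHD6-OE to control was 7.30 in fragments and 9.93 in FPKM. Genes outside the stretch had medians of 0.844 in fragments and 1.02 in FPKM, and the FPKM ratio exceeded the fragment ratio by a median factor of 1.37 in members and 1.21 outside. The cause of this factor was not tested. Length was weakly related to the overexpression ratio itself. Over the 47 members the log2 span correlated with the log2 ratio of GmPHD6-OE to control with r of 0.08 and rho of -0.03, and the log2 implied length with r of 0.18 and rho of 0.06. With the log2 level in GmPHD6-OE the log2 span correlated with r of -0.35 and rho of -0.27.

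Models beside the stretch were few and low. In the 1 Mb before it 14 models passed the filter, and in GmPHD6-OE against control 0 of them were higher and 0 lower by the rule. Their median difference was 0.04, with a range from -0.61 to 0.30, and they summed to 83.6 FPKM in GmPHD6-OE, 69.0 in RNAi and 87.2 in control. In RNAi against control 1 of the 14 was lower and 0 higher. The last of them, Glyma.13G010700, lay 172257 bases before the stretch and read 0.954 FPKM in GmPHD6-OE, 1.40 in RNAi and 0.971 in control. Their summed level lay under the median of a single member in every column.

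In the 1 Mb after the stretch a single model passed the filter. Glyma.13G024300 (4230811 to 4231382), 4038 bases beyond the last member, read 3.91 FPKM in GmPHD6-OE (0 to 8.07), 0.489 in RNAi (0 to 1.89) and was listed at 0 in control, so no ratio to control is given. In the rest of chromosome 13, 15 models were higher and 33 lower in GmPHD6-OE against control among 2301 compared. Since the ends were drawn where the run of higher models ended, the edge itself is not a result.

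Genes elsewhere were searched for the members' pair of differences. Both differences from control, on the log2(FPKM + 1) scale, were required to lie between the members' 10th and 90th percentiles, 1.38 to 4.13 for GmPHD6-OE and 0.04 to 0.77 for RNAi. This range held 30 of the 47 members and 23 of 32836 genes outside the stretch (0.0700%). The 23 lay on 16 chromosomes and 0 of them on chromosome 13. Only 1 of the 23 reached 100 FPKM in GmPHD6-OE. It was Glyma.10G297000 on chromosome 10 (51376383 to 51376801), with 2459 FPKM in GmPHD6-OE, 1130 in RNAi and 908 in control. The range was cut from the members' own values, in a contrast that also drew the stretch, so the shares of members and of other genes in it follow from its construction and nothing is read from them.

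The separate libraries behind the pooled columns could be read only where few fragments were involved. There the values fell on sums of whole fragments of 2 libraries with unequal scaling, and the pair was accepted where chance would give under 0.05 such pairs. Up to 40 fragments, this placed 54.1% of 15568 values in GmPHD6-OE, 55.7% of 16270 in RNAi and 57.1% of 15554 in control. Library A denotes the one with the smaller scaling step in a column and library B the one with the larger. Their replicate numbers are not known. Each recovered pair is inferred, on the assumption that the bounds hold the counting error of 2 scaled libraries. It was not checked against separate libraries.

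In the stretch 27 models were recovered in all 3 columns, and all 27 were below the membership limit. With exact 95% Poisson intervals, which cover counting error only, library A of GmPHD6-OE held 28 fragments (18.6 to 40.5) and library B 99 (80.5 to 121). The RNAi libraries held 25 (16.2 to 36.9) and 20 (12.2 to 30.9), and the control libraries 9 (4.12 to 17.1) and 15 (8.40 to 24.7). The interval of library A of GmPHD6-OE thus overlapped those of the RNAi libraries and of control library B, but not that of control library A. The interval of library B lay above those of the other 5. With the 2 libraries of each group scaled to each other, and no scaling between groups, the ratio of GmPHD6-OE to control was 5.54 with both overexpression libraries, 8.95 without library A and 2.13 without library B.

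Of the 27 models, 20 had more fragments in library B of GmPHD6-OE, 3 had more in library A and 4 had none in either. Most of the 20 differed by a single fragment, such as Glyma.13G012800 with 0 in library A and 1 in library B. No share of models outside the stretch was set beside these counts. Those named were chosen after their values were seen. Glyma.13G022000 had 2 fragments in library A and 24 in library B of GmPHD6-OE, 5 and 1 in the RNAi libraries, and 3 and 1 in the control libraries. Glyma.13G022700 had 1 and 16 in GmPHD6-OE, 3 and 1 in RNAi, and 1 and 1 in control. The other way round, Glyma.13G014300 had 4 fragments in library A and 0 in library B of GmPHD6-OE, and Glyma.13G020400 and Glyma.13G021000 had 4 and 1 each. Glyma.13G017800 was more even, with 9 and 16 in GmPHD6-OE, 6 and 4 in RNAi, and 1 and 6 in control. Much of library B's total of 99 lay in Glyma.13G022000, Glyma.13G017800, Glyma.13G022700 and Glyma.13G018200, with 24, 16, 16 and 14 fragments. Outside the stretch, libraries were recovered for 3712 low genes with at least 10 fragments, a number that most of the 27 models did not reach. In these genes library B held a median of 49.3% of the GmPHD6-OE fragments, and the 5th to 95th percentiles were 15.5% to 82.6%. Summed over the 27 models, the scaled fragments were 25.5 in library A and 107 in library B. This range cannot tell whether that split is unusual, because single genes with few fragments scatter more by counting alone.

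**Figure D5:**
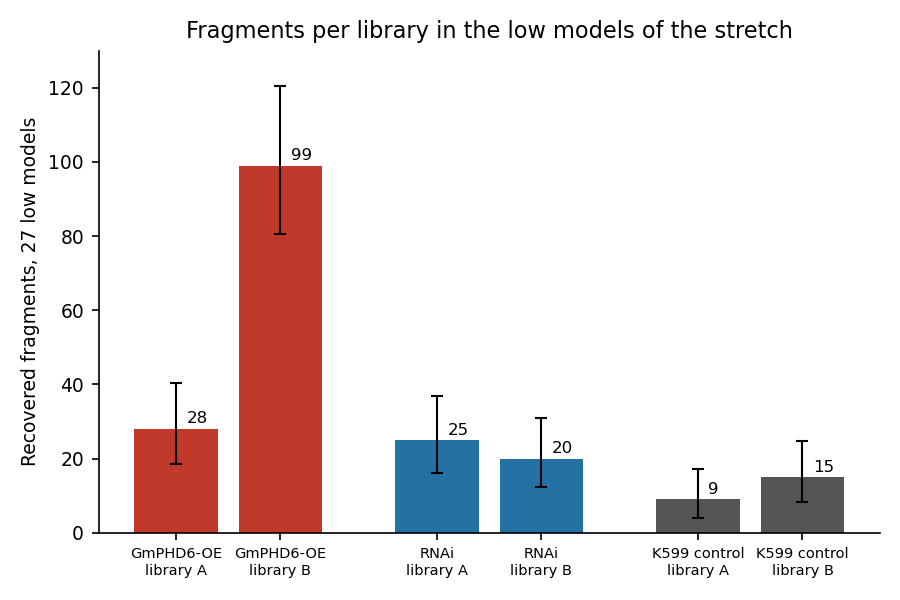
Fragments recovered in each library over the 27 low models of the stretch, none of them a member, with exact 95% Poisson intervals as bars. Library B of GmPHD6-OE held 99 fragments, library A 28, the RNAi libraries 25 and 20, and the control libraries 9 and 15.

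Among the members only the lowest came near this resolution. For Glyma.13G023700 a single whole pair fell within the rounding error, 5 fragments in library A and 85 in library B of GmPHD6-OE, beside 13 and 11 in RNAi and 6 and 4 in control. Chance would give 0.496 such pairs, so this reading did not meet the acceptance limit. Glyma.13G014700, Glyma.13G016400 and Glyma.13G020100, which were also within reach, each allowed 2 readings in GmPHD6-OE, which put most fragments in opposite libraries. Glyma.13G015600 and Glyma.13G021900 gave no whole pair. For the other members the fragments were too many to be divided. Whether the overexpression values of the abundant members come from both libraries or mainly from 1 of them cannot be told from the pooled columns, and its part in the differences above was not tested.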

How the data were processed

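The authors deposited 1 FPKM value per gene model and group with a lower and an upper bound and a status, the 2 libraries of a group combined, per the file headers. Per the submitters' processing notes TopHat, a splice-aware aligner, was used. The sources used here do not give the TopHat version, the tool that made the FPKM values, strand use, the treatment of fragments with several matches or the level of the bounds. IDs carry the tag Wm82.a2.v1, without a statement on whether starts are 0-based or 1-based. GmPHD6-OE was taken to be the column with the prefix G6, because the remaining prefixes are RNAi and K599.

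From these values, log2(FPKM + 1) differences, FPKM ratios, SDs over genes and correlations were computed in Python 3.11.15 with numpy 2.4.6, pandas 2.3.3 and scipy 1.17.1; figures used matplotlib 3.10.9. The filter was an OK status in 3 columns and at least 1 FPKM in one. Genes at 0 in a compared column got no fold. Fragments were computed from the bounds, taken to lie 2 counting-error standard deviations away. Such computed fragments are read as a scaled mean of 2 libraries, unlike the whole fragments per library. The implied transcript length is the computed fragments per FPKM, scaled by the column's total. Whole fragments per library were read within the rounding error of the deposited digits. The fold rule and the recovery of fragments were tested on simulated data with counting error only. Spread between libraries was not simulated for the fold rule. Whole fragments alone were drawn for the recovery, so fragments divided among models or matches were not covered. For the recovery the scaling steps were those of GmPHD6-OE, 0.456 and 0.542. The closer steps of RNAi (0.489 and 0.506) and control (0.489 and 0.507) were not simulated.

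With 1 pooled value per group no test was possible and a rule of size was used. The stretch, members and lists were chosen with earlier results of these data known. Members named are the 10 highest in GmPHD6-OE, the 3 largest and 3 smallest overexpression differences, the 2 largest and 2 smallest RNAi differences, those not past the rule, the first and last by position, those at loci with 3 or more members, and the longest and shortest; others are said to have been chosen after their values were seen or serve as examples of a count. Lists of ribosome biogenesis genes could not be matched to IDs and were not used.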

Additional observations from a re-analysis of the deposited data

How the results depend on the processing

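No paired analysis was possible because the libraries of a group were deposited as 1 pooled column; for the same reason leaving out a replicate and a replicate block were not run for the members. Of 30 recomputed counts of members past the rule, 29 stayed within 1.5 times; the exception was RNAi against control after quantile normalization, with 1 (Glyma.13G011600, higher). A 4-fold rule left 35 members for GmPHD6-OE against control, 0 for RNAi against control and 30 for GmPHD6-OE against RNAi. Of 27 recomputed medians 23 stayed among the members' central values (the ranks nearest the median), and no direction turned. The others were 2.35 for GmPHD6-OE against control and 0.37 for RNAi against control after quantile normalization, 0.36 for RNAi against control after rescaling to the sum outside the stretch, and 1.89 for GmPHD6-OE against RNAi without the filter on low values, which adds low models. The members' share of the column, in GmPHD6-OE, RNAi and control, was 17.5%, 2.55% and 2.03% with 1 model per locus, 16.3%, 2.39% and 1.81% with spans of at least 500 bases, 10.3%, 1.44% and 1.20% in computed fragments, and 17.2%, 2.46% and 1.97% with implied lengths of at least 100 bases; each takes models or weight away by construction. For the 27 low models, leaving out single libraries gave GmPHD6-OE to control ratios from 2.13 to 8.95 and RNAi to control ratios from 1.47 to 2.54. The length and library alternatives were chosen after seeing the data. The abundant members rest on many fragments, but their libraries cannot be separated, and fragments with several matches and shared loci leave their split between models uncertain.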
